A study of Mus musculus with 12 samples.

Results

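Mbp, Sox10, Mag, Prx, Cdh19 and S100b, 6 genes known from Schwann cells and their myelin, were taken from a named list as a readout of the nerve in a mammary fat pad. All 6 were matched by symbol among the 55487 gene IDs counted, and all 6 were among the 18647 genes with enough reads to be tested. RNA was measured in 12 mammary gland libraries of female mice of the inbred C57BL/6 strain, aged 84 days (postnatal day 84), 4 weeks after they had been supplemented with folic acid. In 6 libraries the mice had received 5 mg/kg folic acid and in 6 they had received 1 mg/kg, so that every mouse was supplemented and no unsupplemented group was analysed here. The series asks whether intake in juvenile and peri-pubertal life shifts the tissue's RNA. The whole right thoracic fat pad was used, so each library mixes fat, epithelium, vessels, muscle, immune cells and nerve. Whether each library is a separate animal is not said in the labels, and every p therefore measures the spread between these samples, which may be technical.

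Schwann cells are the glia of peripheral nerves. The myelinating type wraps a single axon in layers of membrane held together by proteins such as Mbp, and the non-myelinating type ensheathes bundles of thin axons such as the sympathetic fibres that reach fat. Sox10 is the transcription factor that sets the identity of the lineage, Cdh19 is a cadherin of Schwann cells and their precursors, Mag is a receptor of the membrane that faces the axon, Prx organises the outer surface of the sheath, and S100b is a calcium-binding protein of the cytoplasm. Several of these genes are also used elsewhere: Sox10 in mammary epithelium and melanocytes, S100b in brown fat and cartilage, and Mbp, from an alternative start, in cells of the blood lineage.

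Libraries held 48.2 to 75.3 M gene reads, where M stands for mega. Levels are given as CPM, counts per mega reads scaled by TMM, a method that matches libraries on the bulk of their genes. The TMM factor ran from 0.5997 to 1.33 and was lowest in replicate 5 at 5 mg/kg, so each level of that library stands higher here than with scaling by library size alone. Mitochondrial rRNA made up 59.5% of gene reads in that library and 39.2% in replicate 1 at 1 mg/kg, the library with the highest factor. Scaling by library size alone gives shares of all gene reads, mitochondrial rRNA included. The part of this rRNA in the differences between the 2 scalings was not tested. In 7 libraries, 3 at 5 mg/kg and 4 at 1 mg/kg, the T cell gene Cd3e lay at 4.49 to 26.04 CPM and the B cell gene Ms4a1 at 17.7 CPM or more. In the other 5, Cd3e lay at 0.228 to 0.871 CPM. Genes of central myelin were nearly absent: Mog had 0 to 3 reads per library, Opalin 0 to 2 and Mobp 0 to 9.

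Per kilobase of exon, the 6 genes spanned a wide range of levels. Over the 12 libraries Mbp averaged 5.84 ± 1.32 CPM per kb (SD), S100b 2.55 ± 1.92, Sox10 2.48 ± 1.49, Prx 1.63 ± 0.762, Cdh19 1.42 ± 0.677 and Mag 0.204 ± 0.0654 CPM per kb. Mbp exceeded S100b in 12 of 12 libraries and Cdh19 exceeded Mag in 12 of 12. S100b and Sox10 had no fixed order, S100b being higher in 6 of 12 libraries, while Sox10 exceeded Prx in 10 and Prx exceeded Cdh19 in 11. Mag rested on only 29 to 70 reads per library.

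No member differed between the groups past the threshold, an adjusted p of 0.05 by edgeR's quasi-likelihood test. Over all genes 0 of 18647 passed (0% called). At an unadjusted p under 0.05 the share was 1.93% of all genes and 1 of the 6 members, S100b. DESeq2 and limma-voom also called 0 genes. At an unadjusted p under 0.05 they had 776 of 48171 and 361 of 18647 tested genes. The 2 groups did not overlap for 8 genes (0.0429%), and for each of the 6 members they did. The adjusted p by edgeR was 0.943 for 5 members and 0.981 for Mag.

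**Figure D1:**
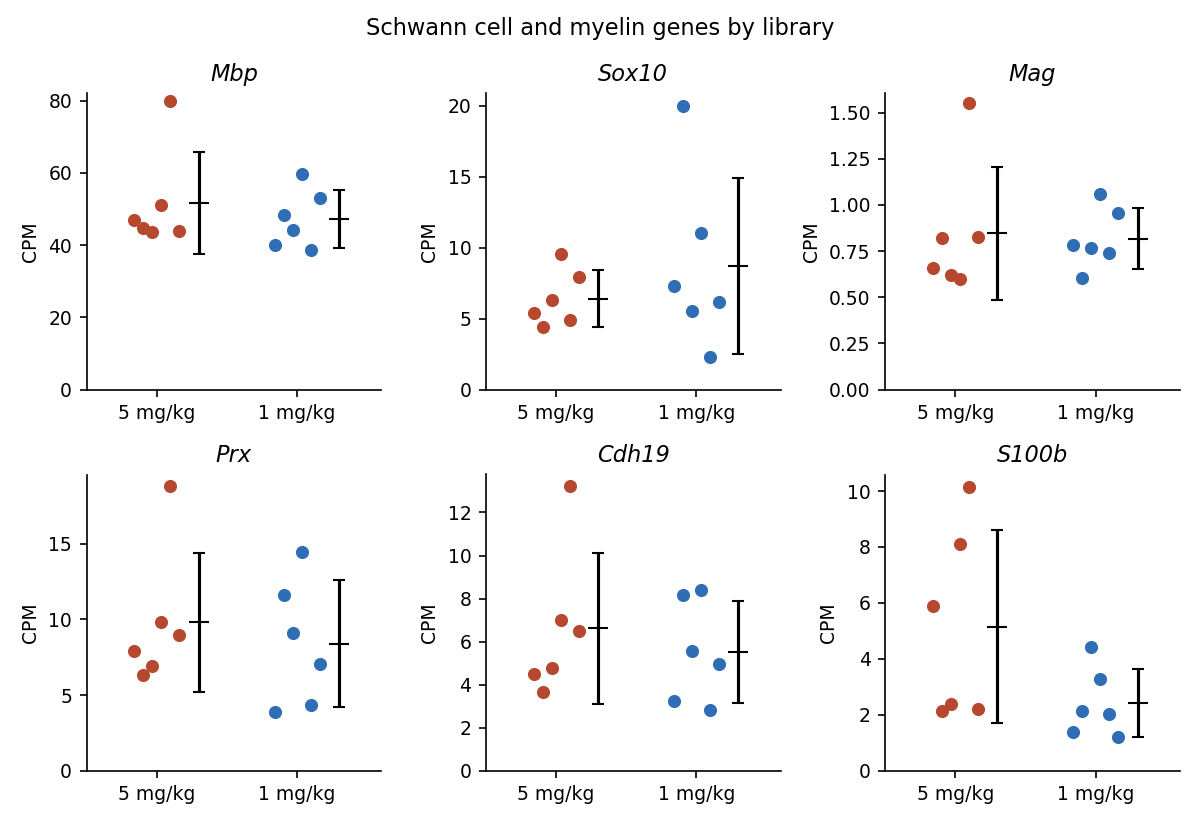
Level of each gene in CPM (vertical axes, linear, from 0) in the 6 libraries at 5 mg/kg (left, red) and the 6 at 1 mg/kg (right, blue), with the mean and SD beside the points. The groups overlap in every panel, and with this TMM scaling replicate 5 at 5 mg/kg is the highest library for every gene but Sox10. With scaling by library size alone it is the highest for no gene.

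Prx and Cdh19 were the pair that moved together most closely from pad to pad. Prx (GRCm38 chr7:27499324-27520214, plus strand, protein coding) had 6.35 CPM as its lowest, 8.46 as its median and 18.8 as its highest value at 5 mg/kg, against 3.86, 8.08 and 14.5 CPM at 1 mg/kg. With TMM its highest library was replicate 5 at 5 mg/kg and its lowest replicate 1 at 1 mg/kg, and most libraries of the 2 groups shared one range. With scaling by library size alone replicate 4 at 1 mg/kg was the highest for Prx, at 13.4 CPM. Replicate 5 at 5 mg/kg then held 11.3 CPM. The log2 fold change by edgeR was 0.22 ± 0.36 (SE), with a 95% interval from -0.55 to 1.00. For each member, the exact permutation p of the dose groups belongs to the difference of mean log2 CPM and not to edgeR's fold change. That difference was 0.28 for Prx (exact permutation p = 0.496). Of its exon bases, 300 overlap a predicted gene on the opposite strand, and since the library kit does not mark strand those reads cannot be assigned.

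Cdh19 (chr1:110888326-110977584, minus strand, protein coding) had 3.66, 5.63 and 13.2 CPM as its lowest, median and highest value at 5 mg/kg, against 2.82, 5.28 and 8.41 CPM at 1 mg/kg. With TMM replicate 5 at 5 mg/kg was again the highest, and replicate 5 at 1 mg/kg the lowest. With scaling by library size alone replicate 2 at 1 mg/kg was the highest, at 8.23 CPM. Replicate 5 at 5 mg/kg then held 7.94 CPM. The log2 fold change of Cdh19 was 0.26 ± 0.35 (interval -0.51 to 1.02, exact permutation p = 0.543). Without replicate 5 at 5 mg/kg it was -0.055 for Cdh19 and -0.059 for Prx.

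Over the 12 libraries Prx and Cdh19 had a Pearson r of log2 CPM of 0.97 and a Spearman rho of 0.97 (permutation p = 2e-05, adjusted p = 0.00126 over 63 relations). The relation held at r = 0.96 without the 2 libraries farthest from the median of Prx, and at 0.98 within each dose group. The 63 relations were the 15 pairs of members and each member with 8 marker genes of other cell types, and 11 of them passed. Within the 7 libraries rich in Cd3e none passed the adjustment, although Prx and Cdh19 kept r = 0.91 there (exact permutation p = 0.00397, adjusted p = 0.125). The ratio of Cdh19 to Prx in CPM varied by only 1.49-fold over the libraries, while each gene alone varied by 4.70-fold and 4.88-fold.

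Among 12856 tested genes with a mean of at least 1 CPM, those most like Prx included other genes of peripheral myelin. Drp2, the dystrophin-related partner of Prx at the sheath surface, came first with r = 0.99, and the adenylate cyclase Adcy1 (0.97) and Ugt8a, which makes the glycolipids of myelin (0.97), were also among the first 5. For Cdh19 they were the raft protein Mal (0.98), the Schwann cell membrane protein Ncmap (0.97), the adhesion protein Cadm4 that binds the axon (0.97), Drp2 (0.97) and Ndrg1, mutated in an inherited neuropathy (0.97). These r are over 12 libraries that differ in makeup and are a description.

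Prx and Cdh19 were low where lymphocyte genes were high. Prx lay at 8.98 to 18.8 CPM in the 5 libraries with Cd3e below 1 CPM and at 3.86 to 9.13 CPM in the 7 with more. Cdh19 lay at 6.50 to 13.2 and 2.82 to 5.58 CPM. With scaling by library size alone both ranges overlapped. Replicate 6 at 1 mg/kg, rich in Cd3e, held 9.32 CPM of Prx and 6.60 CPM of Cdh19. Replicate 4 at 5 mg/kg, poor in Cd3e, held 7.59 and 5.43 CPM. With Cd3e itself r was -0.82 for Prx and -0.86 for Cdh19 (permutation, adjusted p = 0.00488 and 0.00472). Within the 7 libraries rich in Cd3e these r were -0.57 and -0.50 (exact permutation p = 0.197 and 0.253). In these bulk samples fewer cells of a type and less RNA per cell cannot be told apart, and CPM are shares, so more RNA of one tissue lowers the share of the rest. Pecam1, 1 of 9 listed genes of vessel endothelium, ran opposite to Prx (r = -0.78, rho = -0.83, permutation p = 0.00197, adjusted p = 0.0138) and to Cdh19 (r = -0.82, rho = -0.82, permutation p = 0.00119, adjusted p = 0.00937). Without the 2 libraries farthest from the median of Prx or of Cdh19 these r were -0.81 and -0.79. With scaling by library size alone neither passed, at r = -0.44 and -0.38. Within the 7 libraries rich in Cd3e they were -0.56 (exact permutation p = 0.179) and -0.47 (exact permutation p = 0.280). The endothelial list as a whole did not run opposite to Prx: its mean log2 CPM was lowest, at 4.65, 4.69 and 4.72, in replicates 6, 5 and 1 at 1 mg/kg, where Prx was at 7.03, 4.31 and 3.86 CPM, and it was 5.20 in replicate 5 at 5 mg/kg, the library highest in Prx.

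The sequence just upstream of the gene start is shown for the 3 members that have an entry in the promoter table, Prx, Mag and S100b. No relation of these sequences to the levels was tested. Each is the 250 bases before the start on the gene's own strand, 5′ to 3′, from RefSeq on GRCm38.p6. Capitals mark matches, on either strand, to ACAAAG or ACAATG, letters bound by SOX factors, or to CCCNNGGG, letters bound by EBF factors. Of 32536 promoter windows of the same length in the table, 25.0% hold one of the SOX words and 11.9% the EBF word. The Prx window, chr7:27499074-27499323 on the plus strand, holds neither. The Mag window, chr7:30914864-30915113 on the minus strand, before the first of 3 listed starts, holds 1 SOX match and 5 EBF matches, some of which overlap. The S100b window, chr10:76253586-76253835 on the plus strand, holds 1 EBF match.
Prx: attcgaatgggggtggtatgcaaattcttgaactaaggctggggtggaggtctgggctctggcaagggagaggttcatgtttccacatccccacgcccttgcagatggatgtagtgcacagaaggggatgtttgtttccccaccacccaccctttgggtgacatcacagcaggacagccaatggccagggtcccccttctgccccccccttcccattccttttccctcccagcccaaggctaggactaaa
Mag: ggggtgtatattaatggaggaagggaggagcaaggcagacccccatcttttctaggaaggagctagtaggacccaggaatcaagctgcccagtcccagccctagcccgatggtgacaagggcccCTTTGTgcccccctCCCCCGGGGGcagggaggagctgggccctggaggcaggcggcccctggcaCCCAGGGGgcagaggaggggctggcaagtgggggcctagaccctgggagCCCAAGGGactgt
S100b: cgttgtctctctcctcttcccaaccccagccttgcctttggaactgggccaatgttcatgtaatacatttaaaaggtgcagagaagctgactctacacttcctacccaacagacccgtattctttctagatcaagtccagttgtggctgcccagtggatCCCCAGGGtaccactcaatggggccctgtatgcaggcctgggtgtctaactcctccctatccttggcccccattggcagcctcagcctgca
A match describes letters only, and a window without a match shows only that these letters are not in it.

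Mbp and Mag followed the nerve genes less closely, and the least-squares lines of both against Cdh19 met the vertical axis above 0. These intercepts lie outside the measured range of Cdh19, whose lowest level was 2.82 CPM, so a level without Cdh19 was not measured. Mbp (GRCm38 chr18:82475146-82585637, plus strand, protein coding) encodes the myelin basic protein that seals the inner faces of the sheath. It had 43.7, 45.8 and 79.9 CPM as its lowest, median and highest value at 5 mg/kg, against 38.8, 46.3 and 59.6 CPM at 1 mg/kg. Replicate 5 at 5 mg/kg stood apart at the top, and the other 5 of its group lay within the range of the 1 mg/kg libraries. Mbp had a log2 fold change of 0.13 ± 0.17 (interval -0.24 to 0.50, exact permutation p = 0.584). Over the 12 libraries Mbp varied by only 2.06-fold.

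Mbp correlated with Prx at r = 0.85 (rho = 0.79, permutation p = 0.00024, adjusted p = 0.00488) and with Cdh19 at r = 0.85 (rho = 0.78, permutation p = 0.0004, adjusted p = 0.00504). Without the 2 libraries farthest from the median of Mbp, which included replicate 5 at 5 mg/kg, r was 0.69 and 0.68. With scaling by library size alone r was 0.36 and 0.44, and neither passed. On a straight line against Cdh19, Mbp had an intercept of 28.3 ± 3.46 CPM (SE), which is 57.3% of its mean, and Prx one of 0.418 ± 0.684 CPM, or 4.59% of its mean. The Mbp intercept ran from 27.1 to 34.2 CPM when each library was left out in turn and was 37.2 ± 8.86 CPM with scaling by library size alone. The line took up 81.9% of the variance of Mbp with TMM and 16.8% with library size alone. Among the 5 genes most like Mbp were the noncoding RNA Bc1, known from neurons (r = 0.93), the kinase Aatk (0.88), Ugt8a (0.87) and Ncmap (0.86).

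Mag (GRCm38 chr7:30899176-30914873, minus strand, protein coding) was the scarcest member. It had 0.5999, 0.740 and 1.55 CPM as its lowest, median and highest value at 5 mg/kg, against 0.605, 0.774 and 1.06 CPM at 1 mg/kg. All libraries but replicate 5 at 5 mg/kg lay within a narrow common range. Its log2 fold change by edgeR was 0.04 ± 0.26 (interval -0.53 to 0.62). The difference of its mean log2 CPM was -0.011 (exact permutation p = 0.978). The SD of log2 CPM within groups was 0.40, against 0.21 from counting alone. Its relation to Mbp (r = 0.75, rho = 0.37, permutation p = 0.0116, adjusted p = 0.0582) did not pass and rested on the 2 libraries farthest from the median of Mag, without which r was -0.06. The intercept of Mag against Cdh19 was 0.444 ± 0.139 CPM, or 53.3% of its mean, and 0.652 CPM with scaling by library size alone. It ran from 0.401 to 0.724 CPM when each library was left out in turn. The line took up only 48.5% of the variance of Mag with TMM and 5.68% with library size alone. Of the genes most like Mag, the first 3 were the helicase Recql4 (r = 0.78), Cmas, which activates sialic acid (0.77), and Mbp itself (0.75), followed by the DNA ligase Lig4 (0.75) and the methyl-DNA-binding family protein Mbd3 (0.74).

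**Figure D2:**
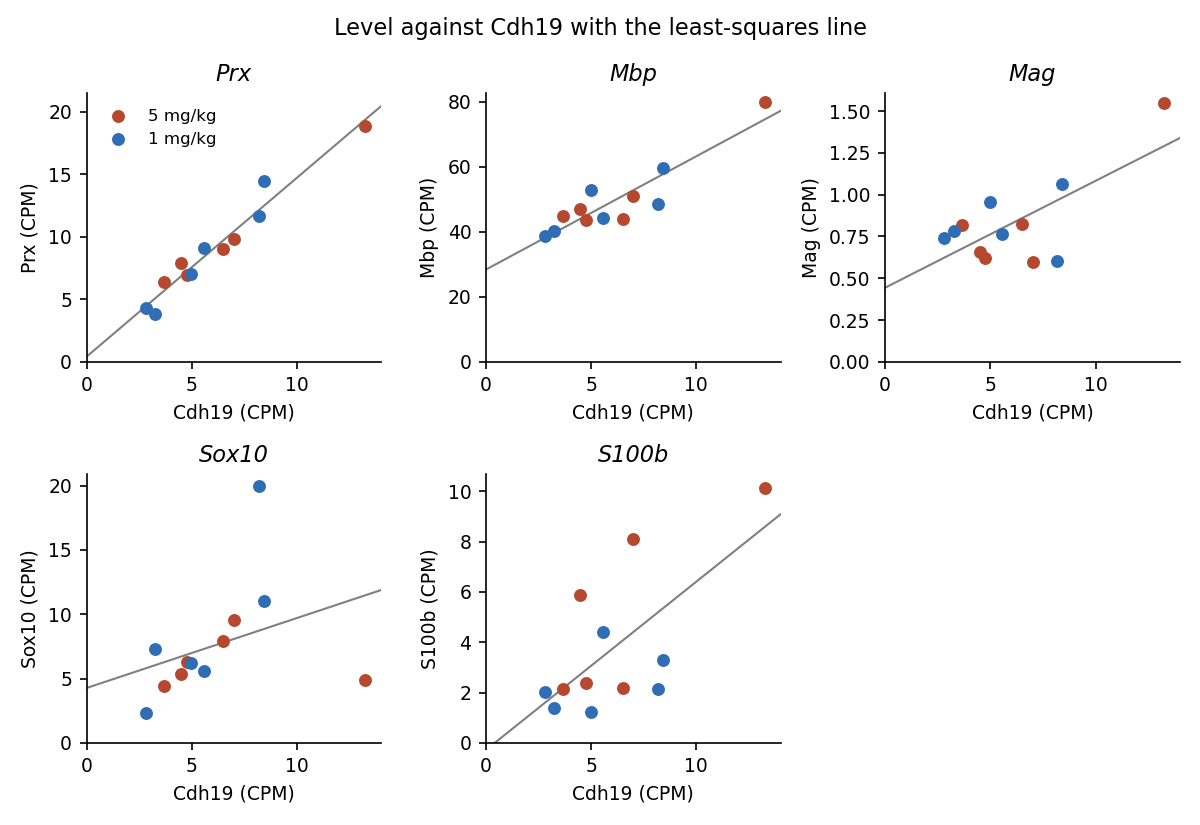
Level in CPM (vertical axes) of Prx, Mbp, Mag, Sox10 and S100b against that of Cdh19 (horizontal axes, CPM) in 12 libraries, 5 mg/kg in red and 1 mg/kg in blue, with the least-squares line, all axes linear from 0. The line of Prx reaches the vertical axis near 0, at 0.418 CPM, those of Mbp and Mag at 28.3 and 0.444 CPM, and Sox10 and S100b scatter widely.

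No relation of Sox10 to another member passed the adjustment. Sox10 (GRCm38 chr15:79154908-79165240, minus strand, protein coding) had 4.40, 5.85 and 9.58 CPM as its lowest, median and highest value at 5 mg/kg, against 2.29, 6.75 and 19.99 CPM at 1 mg/kg. The extremes were replicates 2 and 5 at 1 mg/kg, and all 6 libraries at 5 mg/kg lay between them. The log2 fold change of Sox10 by edgeR was -0.44 ± 0.41 (interval -1.34 to 0.45), and 0.0076 without replicate 2 at 1 mg/kg. The difference of its mean log2 CPM was -0.20 (exact permutation p = 0.680). Its correlation with Prx was r = 0.46 (rho = 0.43, permutation p = 0.130, adjusted p = 0.273), with r = 0.14 without the 2 libraries farthest from the median of Sox10 and 0.88 without the 2 farthest from that of Prx. With Cdh19 it was r = 0.53 (rho = 0.54, permutation p = 0.0722, adjusted p = 0.189), with 0.22 and 0.76 after the same steps for Sox10 and for Cdh19. These relations thus depend on which libraries are left out. In replicate 5 at 5 mg/kg, the library highest in Prx, Cdh19 and Mbp, Sox10 was at only 4.89 CPM. The ratio of Sox10 to Prx varied by 7.26-fold over the libraries.

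Sox10 varied with genes of mammary epithelium, a relation that passed also with scaling by library size alone. With Krt18, the keratin of luminal cells, r was 0.84 (rho = 0.78, permutation p = 0.00059, adjusted p = 0.00531), and with Krt14, the keratin of basal cells, 0.85 (rho = 0.77, permutation p = 0.00054, adjusted p = 0.00531). Without the 2 libraries farthest from the median of Sox10 these r were 0.67 and 0.73. Within the 5 mg/kg group they were 0.54 and 0.73, and within the 1 mg/kg group 0.96 and 0.96. The genes most like Sox10 were Vsig10 (r = 0.98), the Wnt receptor Fzd3 (0.97), Elf5, the transcription factor of luminal progenitors and alveoli (0.97), Csdc2 (0.97) and Nxf7 (0.96). Elf5 ran from 2.39 to 7.67 CPM at 5 mg/kg, against 1.41 to 16.1 CPM at 1 mg/kg, with its highest and its lowest value in the same 2 libraries as Sox10. The summed level of the 12 luminal genes ran from 342 to 955 CPM at 5 mg/kg, against 206 to 1415 CPM at 1 mg/kg. Of the melanocyte list, 5 of 8 genes were tested, with 2 higher and 3 lower and a median log2 fold change of -0.21, which ran from -0.33 to 0.078 with a library left out. Its member with the highest level, Mitf, which brown fat and other tissues also use, averaged 19.2 ± 3.59 and 17.4 ± 6.24 CPM at 5 and 1 mg/kg, while the melanin enzyme gene Dct averaged 0.650 ± 0.421 and 0.402 ± 0.278 CPM.

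**Figure D3:**
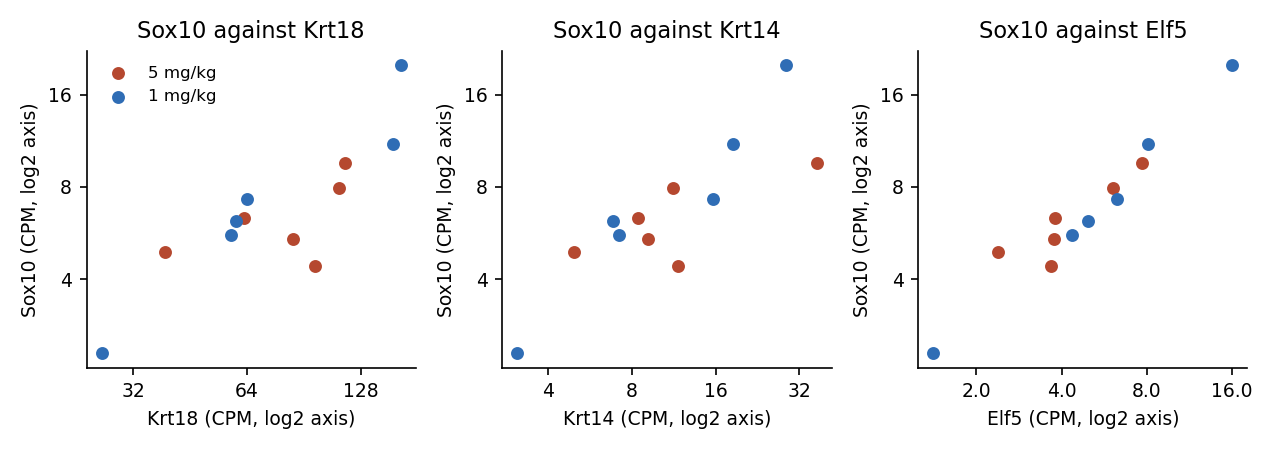
Level of Sox10 (vertical axes) against Krt18, Krt14 and Elf5 (horizontal axes) in 12 libraries, all in CPM on log2 axes, with 5 mg/kg in red and 1 mg/kg in blue. Sox10 is higher where the epithelial genes are higher (r = 0.84, 0.85 and 0.97), with replicate 2 at 1 mg/kg at the top, at 19.99 CPM of Sox10, and replicate 5 at 1 mg/kg at the bottom, at 2.29 CPM.

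S100b had the largest difference between the groups of the 6 genes, and it did not pass. S100b (GRCm38 chr10:76253853-76261159, plus strand, protein coding) had 2.15, 4.14 and 10.1 CPM as its lowest, median and highest value at 5 mg/kg, against 1.22, 2.09 and 4.41 CPM at 1 mg/kg. Of the 5 mg/kg libraries, replicates 1, 4 and 5 lay above every library at 1 mg/kg, and the other 3 lay within the 1 mg/kg range. The log2 fold change was 1.09 ± 0.47 (SE, interval 0.08 to 2.10), with an unadjusted p of 0.0366 and an adjusted p of 0.943 by edgeR. The exact permutation p was 0.0974, and 1.34% of all genes were higher at 5 mg/kg at an unadjusted p under 0.05. The log2 fold change was 0.73 with the log2 CPM of Ucp1 as a covariate (unadjusted p = 0.0553 by edgeR). With the mean of the skeletal muscle list as covariate it was 0.20 (unadjusted p = 0.566 by edgeR). It ran from 0.78 to 1.33 when each library was left out in turn.

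Ucp1, the uncoupling protein that lets brown fat make heat, was highest in the same 3 libraries. At 5 mg/kg Ucp1 reached 869, 790 and 563 CPM in replicates 4, 5 and 1, followed by replicate 3 at 1 mg/kg with 409 CPM, the library with the most S100b of its group. Replicate 6 at 5 mg/kg, in contrast, held 0.902 CPM of Ucp1 and still 2.19 CPM of S100b. Over 12 libraries S100b and Ucp1 had r = 0.72 and rho = 0.75 (permutation p = 0.00731, adjusted p = 0.0425), with r = 0.71 within the 5 mg/kg group and 0.75 within the 1 mg/kg group. Without the 2 libraries farthest from the median of Ucp1 r was 0.94, and without the 2 farthest from the median of S100b it was 0.59. Leaving out a single library ended the call in 9 of 12 cases, with adjusted p up to 0.0946. The 4 libraries with the most Ucp1 also had the largest share of mitochondrial rRNA among gene reads, at 59.5%, 54.6% and 51.5% in replicates 5, 4 and 1 at 5 mg/kg and 52.9% in replicate 3 at 1 mg/kg, against 39.2% to 49.5% in the other 8. The part of that share in the S100b values was not tested. The other 5 members had r with Ucp1 from -0.33 for Sox10 to 0.31 for Mbp, and none passed. S100b with Mbp had r = 0.59 (rho = 0.45, permutation p = 0.0417, adjusted p = 0.122), 0.27 without the 2 libraries farthest from the median of Mbp, and -0.56 with scaling by library size alone.

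**Figure D4:**
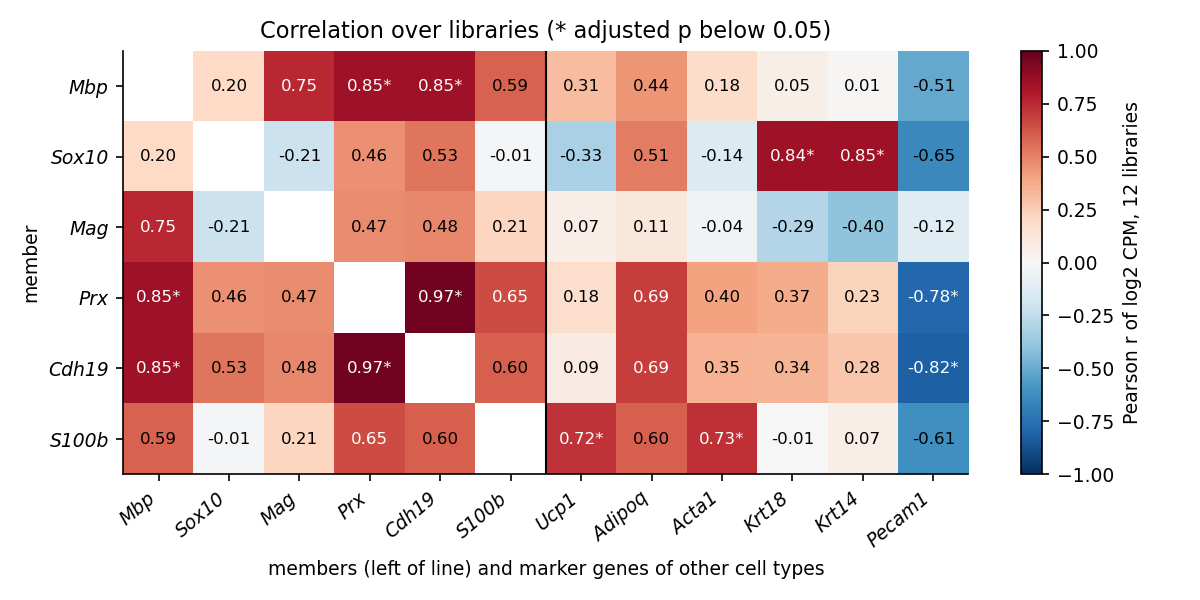
Pearson r of log2 CPM over 12 libraries between each of the 6 genes (rows) and the 6 genes and 6 markers of other cell types (columns), with red for positive and blue for negative r and an asterisk for an adjusted p below 0.05. Prx, Cdh19 and Mbp form a block at 0.85 to 0.97, Sox10 stands with Krt18 and Krt14, and S100b with Ucp1 and Acta1.

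S100b could be written as the sum of a term that follows Ucp1 and a term that follows the nerve genes. On the log2 scale, least squares on Ucp1 and on the mean of the other 5 members gave coefficients of 0.24 ± 0.055 and 1.06 ± 0.37 (SE), and the 2 terms took up 74.7% of the variance, against 52.2% for Ucp1 alone and 23.6% for the other members alone. With scaling by library size alone this share was 44.0% and the nerve coefficient 0.33 ± 0.60. With Adipoq added the nerve coefficient was 0.56 ± 0.48, and without replicate 5 at 5 mg/kg it was 0.93 ± 0.47. On this scale the nerve term was thus within 2 SE of 0 under each of these. On the linear CPM scale, with Prx as the nerve term, a choice made after the values were seen, the 2 terms took up 98.6%. Each 100 CPM of Ucp1 went with 0.744 ± 0.040 CPM of S100b and each 10 CPM of Prx with 1.97 ± 0.30 CPM, and the intercept was 0.026 ± 0.26 CPM. Ucp1 alone took up 91.8% and Prx alone 45.3%. The share for both ran from 98.5% to 98.9% when each library was left out in turn and was 96.4% with scaling by library size alone. With a library left out, the Prx coefficient ran from 1.43 to 2.14 CPM of S100b per 10 CPM of Prx. These shares describe 12 libraries and carry no test.

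In replicate 4 at 5 mg/kg the Ucp1 term was 6.47 CPM and the Prx term 1.93 CPM, of 8.11 CPM measured. In replicate 6 at 5 mg/kg the Ucp1 term was 0.00671 CPM and the Prx term 1.77 CPM, of 2.19 CPM measured. The first of these libraries was thus fitted mostly by the brown fat term and the second by the nerve term alone. The Ucp1 term averaged 3.09 ± 2.78 CPM at 5 mg/kg, against 0.824 ± 1.12 CPM at 1 mg/kg (SD, n = 6 each). The Prx term averaged 1.93 ± 0.907 CPM at 5 mg/kg, against 1.66 ± 0.823 CPM at 1 mg/kg. What the fit left over averaged 0.093 ± 0.32 CPM at 5 mg/kg, against -0.093 ± 0.36 CPM at 1 mg/kg. These 2 means are equal and opposite by construction, because a least-squares fit with an intercept leaves a sum of 0 over all libraries.

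**Figure D5:**
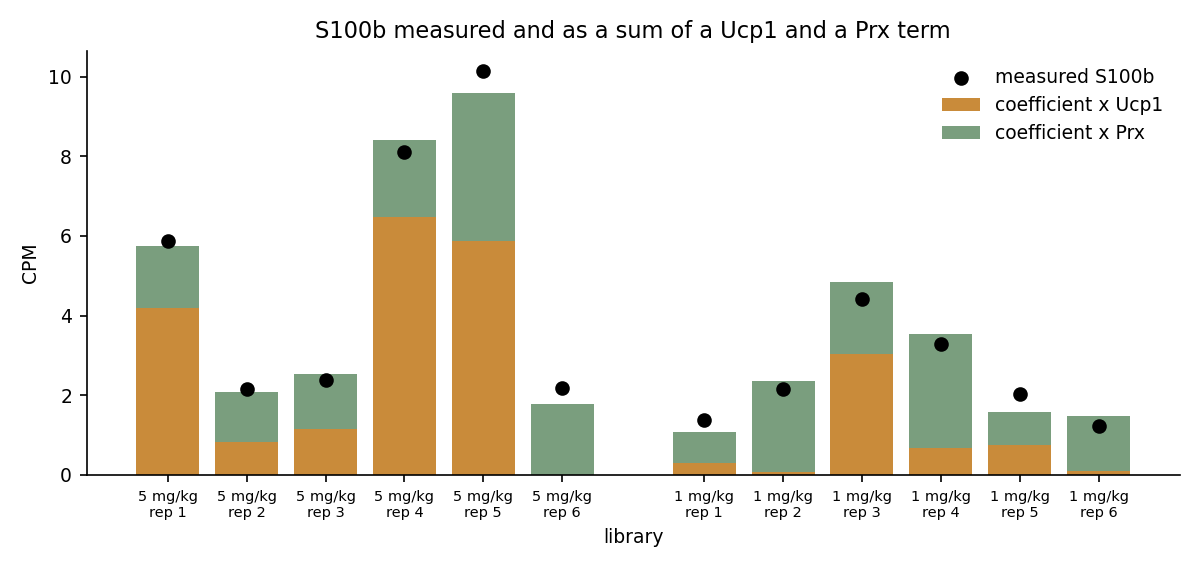
Measured S100b (black points, CPM) in each library, 5 mg/kg on the left and 1 mg/kg on the right, over stacked bars of the fitted Ucp1 term (brown) and Prx term (green), without the intercept of 0.026 CPM. The brown part is tallest in replicates 4, 5 and 1 at 5 mg/kg and replicate 3 at 1 mg/kg and nearly absent in replicate 6 at 5 mg/kg, and the points lie within 0.521 CPM of the fit.

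Other brown fat genes stood beside Ucp1. Of 18 brown fat genes 17 had a positive log2 fold change and 1 a negative one, with 1.31 as the median, where 47.2% of all tested genes were higher and their median was -0.02. None passed. Their summed level ran from 136 to 2005 CPM at 5 mg/kg, against 118 to 1142 CPM at 1 mg/kg. Clstn3, whose short form in mouse brown fat promotes the release of S100b, followed S100b at r = 0.96 and ranked 44 of 12856 genes by likeness. It ran from 6.30 to 39.6 CPM at 5 mg/kg, against 2.93 to 17.8 CPM at 1 mg/kg. By the same likeness to S100b, on log2 CPM, Ucp1 ranked only 2118 (r = 0.72) and Prx 2803 (r = 0.65). The genes most like S100b were Oxnad1, Coq7 of ubiquinone synthesis, the lipid acyltransferase Agpat3, the mitochondrial carrier Slc25a51 and Cox15 of cytochrome oxidase assembly, each at r = 0.98. Acta1, the actin of skeletal muscle and 1 of 11 listed muscle genes, moved with S100b too. Its r with S100b was 0.73 (rho = 0.68, permutation p = 0.00742, adjusted p = 0.0425), and 0.65 without the 2 libraries farthest from the median of S100b. Leaving out a single library ended that call in 7 of 12 cases. The 11 muscle genes, 5 higher and 6 lower but 11 higher without replicate 3 at 1 mg/kg, summed to 16894 to 51612 CPM at 5 mg/kg, against 16850 to 78358 CPM at 1 mg/kg. With Acta1 added on the log2 scale its coefficient was 0.47 ± 0.22 and that of Ucp1 0.17 ± 0.056, and the share of variance was 84.0%. On the linear scale, with Acta1 added, the Ucp1 and Prx coefficients were 0.00754 and 0.199 per CPM, against 0.00744 and 0.197 without it. Of the cartilage list, 7 of 12 genes were tested, 1 higher and 6 lower, with a median of -0.26.

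The direction of the wider myelin list turned on 1 library. Of 22 other myelin genes 20 were tested, and 18 had a positive log2 fold change and 2 a negative one, with 0.20 as the median and none past the threshold. Without replicate 5 at 5 mg/kg 9 were higher and 11 lower, with a median of -0.02. Pmp22, the tetraspan protein whose duplication causes an inherited neuropathy, averaged 65.7 ± 23.9 CPM at 5 mg/kg, against 52.8 ± 22.8 CPM at 1 mg/kg, with a log2 fold change of 0.32 ± 0.29. The smallest p of the list belonged to Gldn, which gathers sodium channels at nodes (0.79 ± 0.53), and Cmtm5 (0.80 ± 0.57).

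Of 14 other Schwann cell genes 11 were tested, 7 higher and 4 lower, with a median of 0.11. Without replicate 5 at 5 mg/kg 2 were higher and 9 lower. Scn7a, a sodium channel of non-myelinating Schwann cells, averaged 147 ± 44.4 CPM at 5 mg/kg, against 136 ± 72.8 CPM at 1 mg/kg, a difference of 0.11 ± 0.34 on the log2 scale. The neuregulin receptor Erbb3, which mammary epithelium also uses, averaged 33.5 ± 12.2 and 38.0 ± 22.5 CPM (-0.18 ± 0.39), L1cam 4.60 ± 0.609 and 5.399 ± 1.20 CPM (-0.23 ± 0.16) and Ptprz1 2.31 ± 0.586 and 3.10 ± 2.07 CPM (-0.42 ± 0.39). Of 16 axon genes 10 were tested, 3 higher and 7 lower, with a median of -0.16. Of the 10, 2 had an unadjusted p under 0.05 by edgeR, as had 1.93% of all tested genes, and both were among the 3 higher. They were the vesicle protein gene Syp, at 3.35 ± 0.618 and 2.38 ± 0.698 CPM (0.49 ± 0.21), and the ubiquitin hydrolase gene Uchl1, at 1.07 ± 0.230 and 0.710 ± 0.211 CPM (0.60 ± 0.24). Both had an adjusted p of 0.943.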

How the data were processed

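The deposited values are raw counts of reads per gene, 1 file for each of 12 libraries. STAR, HTSeq 0.6.1 and the mm10 build are named in the submitters' processing notes. The gene annotation and strand setting used by HTSeq are not given in the sources. Per the labels' protocols, RNA came from whole right thoracic fat pads by a mirVana kit, and libraries were made by TruSeq RNA Sample Prep v2, a poly(A) kit that keeps no strand information. Tally lines, 16.7% to 35.7% of reads, were left out. Libraries of 1 group differed by more than sampling noise (lowest chi-square 41.7 per degree of freedom over 30 pairs). Symbols matched 55141 IDs, and coordinates come from GENCODE on GRCm38.

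The groups were compared with edgeR 4.0.16 under R 4.3.3, with filterByExpr, TMM, and the quasi-likelihood F-test, without covariates, adjusted by Benjamini-Hochberg over 18647 genes. The procedure was tested on simulated counts drawn with the same dispersion for every gene. That run does not show what could be detected at the spread of the genes reported here. Single genes were also tested two-sided by exact permutation of mean log2 CPM over 924 assignments (smallest possible p 0.00216). Correlations used log2 CPM with a prior count of 2, two-sided permutation p from 100000 resamples, adjusted over 63 relations, in Python 3.11.15 with SciPy 1.17.1. Fits were least squares. Alternatives were DESeq2 1.42.0, limma-voom 3.58.1, other scalings, filters, covariates and scales, and each library left out in turn. The members, 16 gene lists and tests were chosen with earlier results of these data known. The rule for named genes took all members, the highest gene and the 2 with the smallest p of each list, the 5 genes most like each member, and Ucp1, Adipoq, Pmp22, Erbb3 and Clstn3. Part of the genes named by this rule is not reported here. Lists that bear on no result are given under the other observations. Elf5, Dct and the other genes outside a list's top entries were named after their values were seen. Counting error only is covered by the SD from counting.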

Additional observations from a re-analysis of the deposited data

Results flagged for a closer look

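In the 5 mg/kg group 1 library, replicate 5, lay far above the other 5 for 2 of the 6 genes. For Mbp, at 79.9 CPM, its gap to the next library was 0.743 of the whole range of the group, and for Mag, at 1.55 CPM, 0.67. Both lie above the limit for a group of 6 samples. Chance alone passes this limit in about 1 of 20 groups, and 12 groups were looked at. The same library had the lowest TMM factor, 0.5997, and the largest share of mitochondrial rRNA among gene reads, 59.5%. With scaling by library size alone it held 47.9 CPM of Mbp, below replicates 2, 3 and 6 of its group at 53.0, 49.4 and 53.6 CPM, and 0.930 CPM of Mag. The part of the scaling in both values beyond this was not tested.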

How the results depend on the processing

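No gene was called by edgeR under any alternative run, nor by DESeq2 or limma-voom. The log2 fold change of S100b stayed positive under every alternative run. Those of the other members turned as follows: Mag -0.025 by limma-voom, Mag -0.17 and Mbp -0.081 with library size alone, and Mbp -0.086, Mag -0.11, Prx -0.26 and Cdh19 -0.22 with the muscle list as covariate. Left out 1 library at a time, they ran from -0.021 to 0.21 for Mbp, -0.64 to 0.0076 for Sox10, -0.19 to 0.14 for Mag, -0.059 to 0.45 for Prx and -0.055 to 0.42 for Cdh19. The median of all genes was -0.16 with library size alone, against -0.02 with TMM. The number of relations past the threshold was 6 with library size alone, 0 within the 7 libraries rich in Cd3e (an alternative chosen after seeing the data) and 9 to 14 with a library left out.

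Some relations turned sign, most of them weak. By Spearman rho, Sox10 with S100b was 0.056, Mag with S100b -0.10 and Mag with Ucp1 -0.23, and with dose means removed Sox10 with S100b was 0.066. With library size alone r with S100b was -0.57 for Mag and -0.56 for Mbp, and r with Ucp1 was -0.48 for Mag, -0.55 for Mbp, -0.34 for Prx and -0.46 for Cdh19. Within the 7 libraries Mag with S100b was -0.60, Mag with Ucp1 -0.72 and Mbp with Ucp1 -0.22. With a library left out the ranges were -0.17 to 0.12 for Sox10 with S100b, -0.41 to 0.44 for Mag with S100b, -0.32 to 0.21 for Mag with Ucp1, -0.025 to 0.30 for Prx with Ucp1 and -0.18 to 0.23 for Cdh19 with Ucp1.

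In the S100b fit on the log2 scale, the brown fat list in place of Ucp1 gave a coefficient of 0.605 and 88.9% of the variance, adding Adipoq a nerve coefficient of 0.563, adding Acta1 a Ucp1 coefficient of 0.170, and library size alone a nerve coefficient of 0.330 and 44.0%. With a library left out the Ucp1 coefficient ran from 0.214 to 0.379. The nerve coefficient ran from 0.932 (SE 0.474, without replicate 5 at 5 mg/kg) to 1.24 (SE 0.408). The share ran from 63.9% (without replicate 5 at 5 mg/kg) to 94.2% (without replicate 6 at 5 mg/kg). On linear CPM, where coefficients have another scale, Ucp1, nerve term and share were 0.00761, 0.204 and 98.1% with the mean of the other members, and, added after seeing the data, 0.00744, 0.197 and 98.6% with Prx, 0.00754, 0.199 and 98.6% with Prx and Acta1, and 0.00720, 0.161 and 96.4% with Prx and library size alone. With a library left out, higher genes numbered 9 to 18 in the myelin list and 2 to 8 in the Schwann cell list. Intercepts against Cdh19 that turned sign with library size alone were -0.914 CPM for Sox10 and 3.08 CPM for S100b, and with a library left out they ran from -2.82 to 5.57 for Sox10, -0.159 to 0.812 for Prx and -0.950 to 1.41 for S100b. The cause of these changes was not tested. Mag, at 29 to 70 reads, is limited by depth. No paired analysis was possible because the numbers 1 to 6 used here only name libraries in accession order, and no label ties a number to an animal, litter or batch.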

Other observations

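Lists of other cell types in the pad, none with a gene past the threshold, gave these values at 5 mg/kg against 1 mg/kg. Of 12 adipocyte genes 12 were higher (median log2 fold change 0.37, and 0.66 without replicate 4 and 0.24 without replicate 6 at 1 mg/kg), with Fabp4 at 2075 ± 591 and 1687 ± 862 CPM, Cebpa at 0.58 ± 0.27 and Lipe at 0.53 ± 0.27 on the log2 scale. Adipoq lay at 759 to 1035 CPM in the 5 libraries with Cd3e below 1 CPM and at 236 to 560 CPM in the 7 with more. Of 12 luminal genes 1 was higher and 11 were lower (median -0.11), but without replicate 2 at 1 mg/kg 10 were higher (median 0.16) and without replicate 5 at 5 mg/kg 7 were higher (median 0.039). Among them were Prlr at -0.29 ± 0.43, Ehf at -0.55 ± 0.40 and Elf5 at -0.59 ± 0.46. Of 7 basal genes 3 were higher (median -0.07), and 6 without replicate 2 or replicate 4 at 1 mg/kg (medians 0.19 and 0.16), with Myh11 at -0.07 ± 0.32. Of 9 endothelial genes 8 were higher (median 0.18, and 0.085 to 0.27 with a library left out), with Pecam1 at -0.07 ± 0.14 and Tie1 at 0.27 ± 0.12. The 9 T cell and 8 B cell genes were all lower (medians -0.61 and -0.58, and -0.98 to -0.27 and -1.03 to -0.25 with a library left out), with Il7r at -0.80 ± 1.18 and Ms4a1 at -0.80 ± 1.45. Of 7 epidermal genes 4 were tested and 4 were higher (median 3.03), with Krt10 at 3.09 ± 0.99 and Dmkn at 5.04 ± 1.38. This rested on 2 libraries: the summed epidermal level was 62.8 CPM in replicate 4 and 16.3 CPM in replicate 2 at 5 mg/kg, against 2.11 to 5.19 CPM in the other 10, and without replicate 4 the median was 1.40. The slow muscle genes Tnnt1 and Myh7 were at 3.35 ± 1.06 and 3.53 ± 1.32.

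Aqp4 was the only tested gene of the 8 listed for central glia. This water channel, which muscle also uses, lay at 16.8 to 62.7 CPM at 5 mg/kg, against 12.4 to 56.2 CPM at 1 mg/kg. Cnp, a phosphodiesterase counted among the myelin genes, was highest in libraries rich in Cd3e. It lay at 10.6 to 31.3 CPM at 5 mg/kg, against 11.0 to 36.2 CPM at 1 mg/kg, that is at 13.3 to 36.2 CPM in the 7 libraries rich in Cd3e and at 10.6 to 16.4 CPM in the other 5.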
